A study of Rattus norvegicus with 16 samples.

Results

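Glucocorticoid signalling was followed through 10 genes, the 2 corticosteroid receptors Nr3c1 and Nr3c2 and 8 genes known to be induced by glucocorticoids (Fkbp5, Sgk1, Tsc22d3, Zbtb16, Pdk4, Hif3a, Cdkn1a and Errfi1). They were chosen by name, with earlier results of these data known, from the 33294 genes of a table of deposited read counts, and all 10 were among the 17856 genes with enough reads to be tested. The libraries are poly(A) RNA-seq of tissue labelled as central amygdala from adult rats whose perinatal exposure was either the synthetic opioid fentanyl or saline, taken 1 day after the last session of a procedure that the labels abbreviate as IVSA. There were 6 fentanyl males, 2 fentanyl females, 6 saline males and 2 saline females; strain, dose and litter are not given in the labels, so p-values cover only the spread among these animals, and littermates cannot be told from unrelated animals. In the labels the fentanyl males carry the library numbers 1 to 6, the fentanyl females 1 and 2, the saline males 1, 2 and 9 to 12, and the saline females 10 and 11.

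Glucocorticoids, of which corticosterone is the main one in rats, are released by the adrenal cortex after stress and enter the brain. Nr3c1 encodes the glucocorticoid receptor and Nr3c2 the mineralocorticoid receptor, which binds the same hormone with higher affinity. Both wait in the cytosol with heat-shock chaperones and, once bound, move to the nucleus and act on transcription. The central amygdala is an output nucleus in which glucocorticoids are known to act on stress and anxiety circuits.

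Total counts per library were 12879701 to 22426428. Levels are given as CPM (read counts scaled to library size with TMM factors) and are compared between libraries only, since gene lengths were not used. Of 9 listed markers of central amygdala neurons 8 were in the table and none was at 0 in any library. The GABA-synthesis gene Gad1 stood at 446 to 709 CPM and Prkcd, which marks a class of central amygdala neurons, at 11.2 to 33.3 CPM. Each of the others ranged over a wider fold difference between libraries. Among them, Crh stood at 0.521 to 17.2 CPM, Dlk1 at 0.762 to 39.85 CPM and Nts at 3.06 to 29.4 CPM. Markers of other cells also varied widely among libraries of the same group. The summed level of 14 myelin genes was 8422 to 36040 CPM in fentanyl libraries and 7587 to 34520 CPM in saline libraries, and that of 8 genes of striatal medium spiny neurons was 4264 to 9160 CPM in fentanyl libraries and 1795 to 6940 CPM in saline libraries. Saline male replicate 3 stood apart in 7 markers of cortical and basolateral glutamatergic neurons, with a mean log2 CPM of 3.95, against 1.06 to 1.99 in the 8 fentanyl libraries and 1.28 to 1.98 in the other saline libraries. In bulk tissue, fewer cells of a type and less RNA per cell cannot be told apart.

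Whether perinatal exposure left a difference in adult transcript levels was asked by setting fentanyl offspring against saline offspring. None of the 10 genes passed the threshold (adjusted p under 0.05 over all genes tested) by edgeR's quasi-likelihood test with sex as a term, where 0.0784% of all genes were called. Of the 10, 7 had log2 fold changes below 0 and 3 above, with a median of -0.25, against -0.01 over all genes. At an unadjusted p under 0.05 there were 2 of the 10, Hif3a and Zbtb16, both lower, while 7.27% of all genes reached that level. DESeq2 called 0 of the 10, and limma voom with sample quality weights called those 2, in a fit that called 1006 genes in all.

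**Figure D1:**
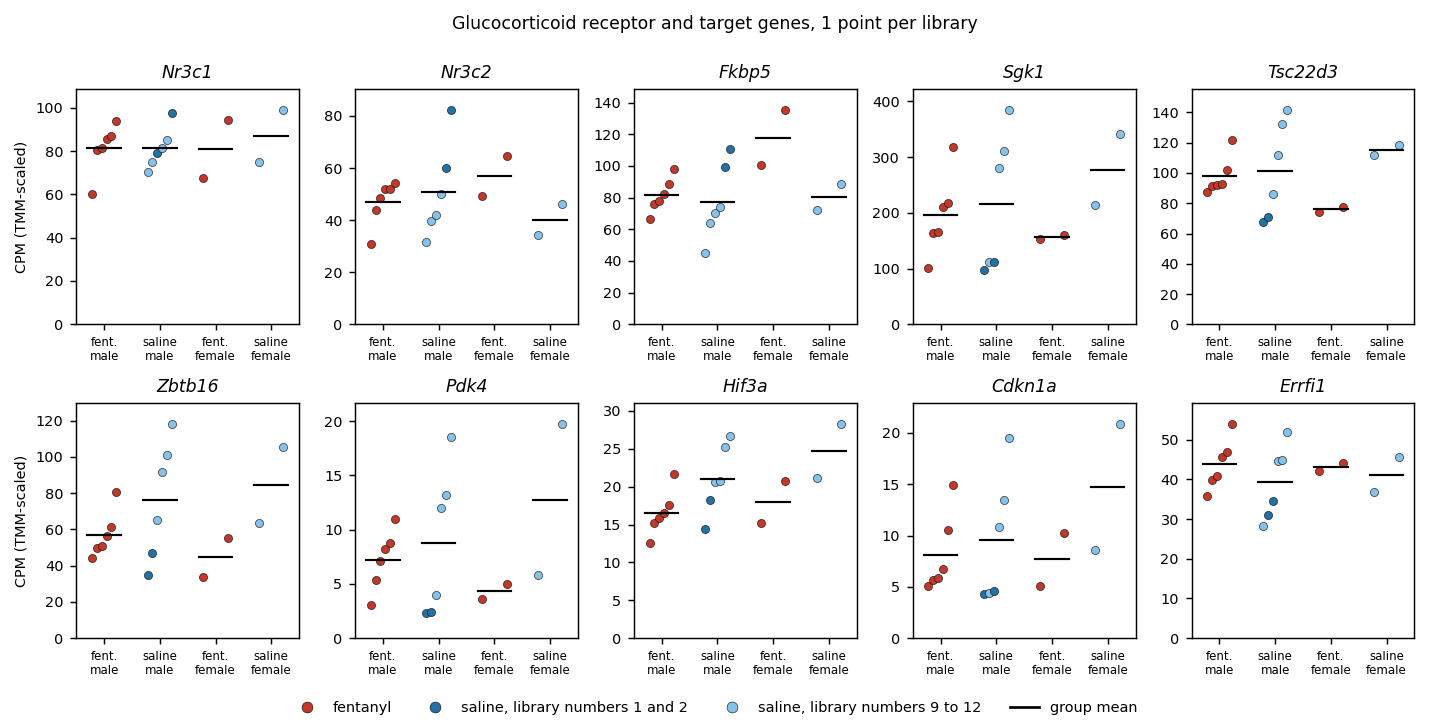
CPM of each of the 10 genes (vertical axes, each from 0) in the 4 groups, 1 point per library, with the group mean as a line; dark and light blue mark the saline libraries by their library numbers. Fentanyl and saline males overlap in all 10 plots, for Sgk1 over nearly the same range (100.2 to 317 CPM in fentanyl males, 97.7 to 384 CPM in saline males).

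The log2 fold changes of both receptors were within 0.04 of 0 over both sexes. Nr3c1 had 60.4, 83.6 and 94.0 CPM (lowest, median and highest) in fentanyl males, against 70.2, 80.2 and 97.7 CPM in saline males. In females Nr3c1 had 94.3 and 67.6 CPM after fentanyl, against 75.0 and 98.7 CPM after saline. The ranges overlapped in both sexes, and Nr3c1 varied the least over saline libraries of these 10 genes, with a coefficient of variation of 12.8%. Its log2 fold change over both sexes was -0.02 ± 0.10 (SE, n = 8 each), and the 95% interval of -0.24 to 0.19 leaves out a change of 1.5-fold in either direction.

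Nr3c2 had 30.7, 50.2 and 54.4 CPM in fentanyl males, against 31.8, 46.0 and 82.1 CPM in saline males. Saline male replicates 1 and 2, at 82.1 and 59.9 CPM, lay above all fentanyl males, and the other 4 lay among them. In females Nr3c2 had 49.1 and 64.5 CPM after fentanyl, against 34.2 and 46.3 CPM after saline, with no overlap in these groups of 2. The log2 fold change over both sexes was 0.04 ± 0.18 (SE, 95% interval -0.35 to 0.42).

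Fkbp5 encodes a co-chaperone that lowers the hormone binding of the glucocorticoid receptor and is itself induced by the receptor, a short negative feedback loop. It had 66.7, 79.9 and 98.2 CPM in fentanyl males, against 45.1, 72.0 and 110.4 CPM in saline males. The 2 fentanyl females, at 100.3 and 135 CPM, were above both saline females, at 72.1 and 88.3 CPM. Fkbp5 was the induced gene with the largest log2 fold change above 0, 0.20 ± 0.16 (SE; edgeR quasi-likelihood test, Benjamini-Hochberg adjusted p = 0.819), with a 95% interval of -0.13 to 0.53.

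Sgk1, a kinase induced by both receptors that acts on ion channels and transporters, ranged 3.93-fold over the 16 libraries. It had 100.2, 188 and 317 CPM in fentanyl males, against 97.7, 197 and 384 CPM in saline males. The saline males fell into a low set and a high set: replicates 1 to 3 had 112, 97.7 and 111 CPM, and replicates 4 to 6 had 281, 384 and 312 CPM. In females Sgk1 had 161 and 154 CPM after fentanyl, against 215 and 341 CPM after saline. Its log2 fold change over both sexes was -0.31 ± 0.30 (SE, 95% interval -0.95 to 0.33). That interval leaves out a 1.5-fold rise after fentanyl but not a 1.5-fold fall.

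Tsc22d3 encodes GILZ, a glucocorticoid-induced leucine zipper protein with anti-inflammatory action. It had 87.1, 92.5 and 122 CPM in fentanyl males, against 67.4, 98.8 and 141 CPM in saline males. The fentanyl males lay inside the saline range, whose lower end was held by saline males 1 and 2 and whose upper end by saline males replicates 4 to 6. In females it had 74.5 and 77.2 CPM after fentanyl, against 112 and 119 CPM after saline. Over both sexes the log2 fold change was -0.19 ± 0.15 (SE; edgeR quasi-likelihood test, Benjamini-Hochberg adjusted p = 0.820).

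The promoters of Sgk1, Tsc22d3 and Fkbp5 are shown because the first 2 genes were positively correlated across libraries and the third was negatively correlated with Tsc22d3, as described further on. Each is the 120 bases before a transcript start in RefSeq (assembly GRCr8, minus strand, written 5′ to 3′), at chr1:24804832-24804951 for Sgk1, chrX:109010035-109010154 for Tsc22d3 and chr20:6543556-6543675 for Fkbp5. Capitals mark TATAAA, which began 33 bases before the start in Sgk1 and 44 bases before it in Tsc22d3. RefSeq gave 3 starts each for Sgk1 and Tsc22d3 and 1 for Fkbp5. For Sgk1 and Tsc22d3 the start shown was chosen for having TATAAA nearest before it, so the stretches do not compare TATAAA between the genes.
Sgk1: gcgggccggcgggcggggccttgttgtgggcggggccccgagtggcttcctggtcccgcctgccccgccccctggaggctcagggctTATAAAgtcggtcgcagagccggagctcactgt
Tsc22d3: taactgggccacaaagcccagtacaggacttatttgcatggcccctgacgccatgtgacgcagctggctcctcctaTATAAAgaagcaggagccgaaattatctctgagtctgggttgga
Fkbp5: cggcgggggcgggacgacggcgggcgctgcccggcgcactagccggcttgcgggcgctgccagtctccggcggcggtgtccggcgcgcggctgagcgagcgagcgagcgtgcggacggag
The Fkbp5 stretch has 81.7% G and C and no TATAAA, the Sgk1 stretch 73.3% and the Tsc22d3 stretch 51.7%. In windows from 250 bases before to 50 after the start, RefSeq gave 14 promoters for 8 of the 10 genes (none was matched for Nr3c2 and Zbtb16). TATAAA on the gene's own strand was in 4 of the 14, those of Sgk1, Tsc22d3 and Errfi1, and in 8.8% of all 33469 promoters in the table. The full glucocorticoid response element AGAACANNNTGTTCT was in 0 of the 14 and in 0.0149% of all promoters. Its parts AGAACA and TGTTCT, each also the reverse complement of the other and both held by the full element, were in 0 of the 14 and in 20.7% of all promoters. These counts say only that the letters are not in these windows.

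Zbtb16, a zinc-finger transcription factor induced by glucocorticoids in many tissues, had the lower mean after fentanyl, without passing the edgeR test. It had 44.1, 53.5 and 80.4 CPM in fentanyl males, against 34.8, 78.6 and 118 CPM in saline males. Saline males 1 and 2 were again at the bottom of their group, at 47.0 and 34.8 CPM, and the other 4 were at 65.2 to 118 CPM. In females Zbtb16 had 34.0 and 55.3 CPM after fentanyl, against 63.8 and 105 CPM after saline. Its mean was 54.0 ± 13.5 CPM in fentanyl libraries and 78.4 ± 29.9 CPM in saline libraries (SD, n = 8 each). The log2 fold change was -0.54 ± 0.23 (SE; edgeR quasi-likelihood test, Benjamini-Hochberg adjusted p = 0.643), and it was -0.83 by limma voom with sample quality weights, with an adjusted p of 0.0117.

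Hif3a, a hypoxia-inducible factor subunit whose gene responds to glucocorticoids, had the smallest p of the 10 over both sexes. It had 12.5, 16.2 and 21.6 CPM in fentanyl males, against 14.4, 20.7 and 26.7 CPM in saline males. In females it had 15.2 and 20.8 CPM after fentanyl, against 21.1 and 28.2 CPM after saline. The groups overlapped in males, with 5 of 6 fentanyl males below the lowest of saline males 9 to 12, which had 20.6 to 26.7 CPM. The log2 fold change over both sexes was -0.37 ± 0.13 (SE; edgeR quasi-likelihood test, unadjusted p = 0.0135, Benjamini-Hochberg adjusted p = 0.555), and -0.53 by voom, with an adjusted p of 0.0255.

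Pdk4, a kinase that holds back pyruvate entry into mitochondria, was counted with 34 to 341 reads per library and had the highest coefficient of variation over all 16 libraries, 67.2%. It had 3.02, 7.66 and 10.9 CPM in fentanyl males, against 2.33, 8.01 and 18.6 CPM in saline males. The females had 4.96 and 3.65 CPM after fentanyl, against 5.81 and 19.7 CPM after saline. Its coefficient of variation was 42.0% in fentanyl and 72.7% in saline libraries, and the log2 fold change of -0.59 ± 0.44 (SE) had a 95% interval of -1.53 to 0.35.

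Cdkn1a encodes the cell cycle inhibitor p21 and is a target of glucocorticoids and of p53. It had 5.10, 6.26 and 14.9 CPM in fentanyl males, against 4.32, 7.69 and 19.5 CPM in saline males. The females had 5.13 and 10.3 CPM after fentanyl, against 8.56 and 20.8 CPM after saline. Groups overlapped in both sexes, and the log2 fold change over both was -0.41 ± 0.36 (SE).

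Errfi1, a feedback inhibitor of the EGF receptor that glucocorticoids also induce, had 35.8, 43.3 and 53.9 CPM in fentanyl males, against 28.2, 39.7 and 52.1 CPM in saline males. The females had 44.2 and 42.1 CPM after fentanyl, against 36.7 and 45.8 CPM after saline. The log2 fold change over both sexes was 0.14 ± 0.12 (SE, 95% interval -0.12 to 0.39).

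**Figure D2:**
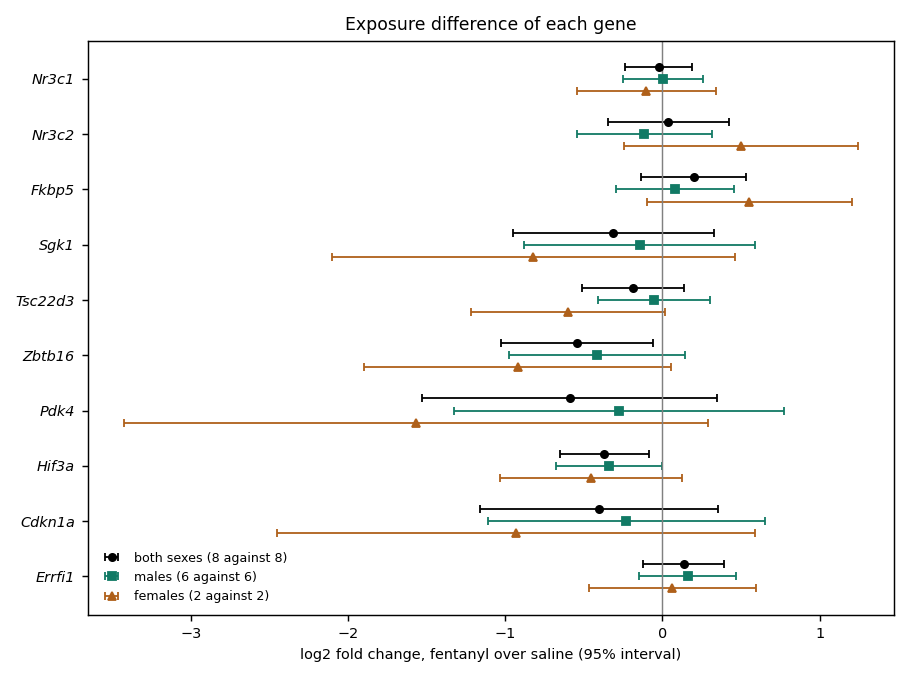
Log2 fold change of fentanyl over saline for each gene (horizontal axis) with its 95% interval, over both sexes, in males and in females. The intervals of Zbtb16 (-1.03 to -0.06) and Hif3a (-0.65 to -0.09) over both sexes lie below 0 before adjustment over all genes, and the female intervals are the widest.

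Within males, 6 against 6, none of the 10 genes was called by edgeR's quasi-likelihood test, against 0.0392% of all genes, and 1 of them, Hif3a, had an unadjusted p under 0.05 (log2 fold change -0.34 ± 0.16, SE), as did 4.13% of all genes. DESeq2 and voom called none of the 10. Fentanyl and saline males overlapped for all 10 genes, as over both sexes; 0.375% of all genes did not overlap in males and 0.101% did not over both sexes. The log2 fold changes in males lay between -0.42 (Zbtb16) and 0.16 (Errfi1), with a median of -0.13.

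Within females, 2 against 2, the differences were larger and edgeR called no gene, of the 10 or of all genes (0%, with 14.3% at an unadjusted p under 0.05 and 20 genes called by DESeq2 and 0 by voom); none of the 10 had an unadjusted p under 0.05, and DESeq2 and voom called none of them. The groups did not overlap for 7 of the 10, but neither did they for 48.8% of all genes. Nr3c2 (log2 fold change 0.50 ± 0.35, SE) and Fkbp5 (0.55 ± 0.31) were the 2 with both fentanyl females above both saline females. Sgk1 (-0.82 ± 0.60), Tsc22d3 (-0.60 ± 0.29), Zbtb16 (-0.92 ± 0.46), Pdk4 (-1.57 ± 0.88) and Hif3a (-0.45 ± 0.27) were the 5 with both fentanyl females below. The smallest adjusted p was that of Tsc22d3 (0.355, edgeR quasi-likelihood test, Benjamini-Hochberg adjusted). In the labels the fentanyl females carry the library numbers 1 and 2 and the saline females 10 and 11. Exposure and library number therefore cannot be told apart in females. All 14 myelin markers had log2 fold changes below 0 in the same comparison, with a median of -1.01. Their summed levels were 8422 and 19740 CPM in fentanyl females, against 26320 and 26770 CPM in saline females, and none was at 0. Their part in the differences of these 7 genes was examined only in the covariate fits described further on, which cannot separate it from exposure.

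The difference of the exposure effect between the sexes was tested directly, and 0 of the 10 genes and 0% of all genes passed by edgeR (8.23% had an unadjusted p under 0.05, DESeq2 called 4 and voom 0). None of the 10 had an unadjusted p under 0.05 for that difference, DESeq2 and voom called none, and the smallest adjusted p was 0.582. Females against males, with exposure as a term, gave 0 of the 10 called, where 0.056% of all genes were. There too none of the 10 had an unadjusted p under 0.05, DESeq2 and voom called none, and the log2 fold changes of females over males lay between -0.09 (Zbtb16) and 0.30 (Fkbp5), with 4 of the 10 below 0. Voom put 8 of the 10 below 0, with Zbtb16 at -0.43 and Pdk4 at -0.39, and the replicate block put 1 below 0, so no direction is read from these values.

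Saline males with library numbers 1 and 2 were compared with those numbered 9 to 12, a split given by the labels whose meaning they do not state, and 6 of the 10 genes were called, where 17.9% of all genes were. The mineralocorticoid receptor gene Nr3c2 and the co-chaperone gene Fkbp5 were higher in numbers 1 and 2, and Sgk1, Tsc22d3, Zbtb16 and Pdk4 were lower. The 2 sets did not overlap for Nr3c2, Fkbp5, Tsc22d3, Zbtb16, Pdk4 and Hif3a, and did not for 44.8% of all genes.

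Nr3c2 had 82.1 and 59.9 CPM in numbers 1 and 2, against 31.8 to 50.0 CPM in numbers 9 to 12, a log2 fold change of 0.80 ± 0.22 (SE; edgeR quasi-likelihood test, Benjamini-Hochberg adjusted p = 0.0212). Fkbp5 had 99.1 and 110.4 CPM in numbers 1 and 2, against 45.1 to 73.9 CPM in numbers 9 to 12, a log2 fold change of 0.73 ± 0.18. Both saline males numbered 1 and 2 thus stood above the other 4 for the receptor and for its co-chaperone. Pdk4 had 2.33 and 2.38 CPM in numbers 1 and 2, against 3.99 to 18.6 CPM in numbers 9 to 12, a log2 fold change of -2.33 ± 0.63 (adjusted p = 0.0205 by the same edgeR test). Tsc22d3 (log2 fold change -0.77 ± 0.18) and Zbtb16 (-1.20 ± 0.29) were lower as well. Sgk1 differed by -1.37 ± 0.44, with replicate 3 of the higher-numbered set, at 111 CPM, as low as numbers 1 and 2. Nr3c1 (0.18 ± 0.17), Hif3a (-0.52 ± 0.21), Cdkn1a (-1.43 ± 0.58) and Errfi1 (-0.37 ± 0.20) did not pass.

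The number of these calls changed when single libraries were left out and when means of tissue markers were added as covariates. Without saline male replicate 1, which left 1 library against 4, only Zbtb16 passed (1 gene), and without replicate 2 none did (0 genes); both fits assume that the lone library varies like the other groups. Without replicate 6 the count was 4, Nr3c2 and Sgk1 having been lost, and without replicate 3 it was 8, Cdkn1a and Errfi1 having been added. Sgk1, whose adjusted p was 0.0416, was also lost without saline male replicate 4 or 5, and without any 1 of fentanyl males 3 to 6 or of the 2 fentanyl females, at adjusted p of 0.0504 to 0.0958 by edgeR. Between the same 2 sets 12 of 14 myelin markers were called lower in numbers 1 and 2, and all 14 had log2 fold changes below 0. Their summed levels were 7587 and 10200 CPM, against 11860 to 34520 CPM. Of 10 astrocyte markers 4 were called lower and 9 had log2 fold changes below 0 (summed 2455 to 2660 CPM, against 3260 to 4071 CPM). All 8 striatal markers were called higher (summed 4541 to 6940 CPM, against 1795 to 3098 CPM), and no marker of these lists was at 0. With the means of the myelin and striatal lists as covariates 0 of the 10 genes passed, where 0.0056% of all genes did, and the median log2 fold change of the 10 was -0.50, against -0.64 without covariates. With the myelin mean alone, an alternative added after seeing the data, 0 of the 10 passed, where 1.39% of all genes did. The median was then -0.13, with Sgk1 at -0.03 and Pdk4 at -0.74. Neither list mean overlapped between the 2 sets, so these fits cannot separate marker levels from library numbers.

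Fentanyl males were also set against each saline set in turn, with the same fentanyl males in both fits, so that the fits are not independent and differ by the distance between the saline sets. Against saline males 1 and 2 the median log2 fold change of the 10 genes was 0.45, and 5.47% of all genes were called; against saline males 9 to 12 it was -0.36, and 0.4% were called. Tsc22d3 was higher in fentanyl males than in saline males 1 and 2 by a log2 fold change of 0.50 ± 0.13 (SE; edgeR quasi-likelihood test, Benjamini-Hochberg adjusted p = 0.0453), the 1 call among the 10 in that fit. Its log2 fold change was -0.26 ± 0.13 against saline males 9 to 12, where no gene of the 10 was called. Over both sexes and without saline males 1 and 2, 3 of the 10 were called, where 6.9% of all genes were. By the same test Fkbp5 was higher in fentanyl libraries (0.43, adjusted p = 0.0472), and Zbtb16 (-0.77, adjusted p = 0.0167) and Hif3a (-0.48, adjusted p = 0.0306) were lower. Without saline males 1 and 2, all fentanyl libraries compared are numbered 1 to 6 and all saline libraries 9 to 12. Exposure and library number thus cannot be told apart in that fit or in that of fentanyl males against saline males 9 to 12.

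**Figure D3:**
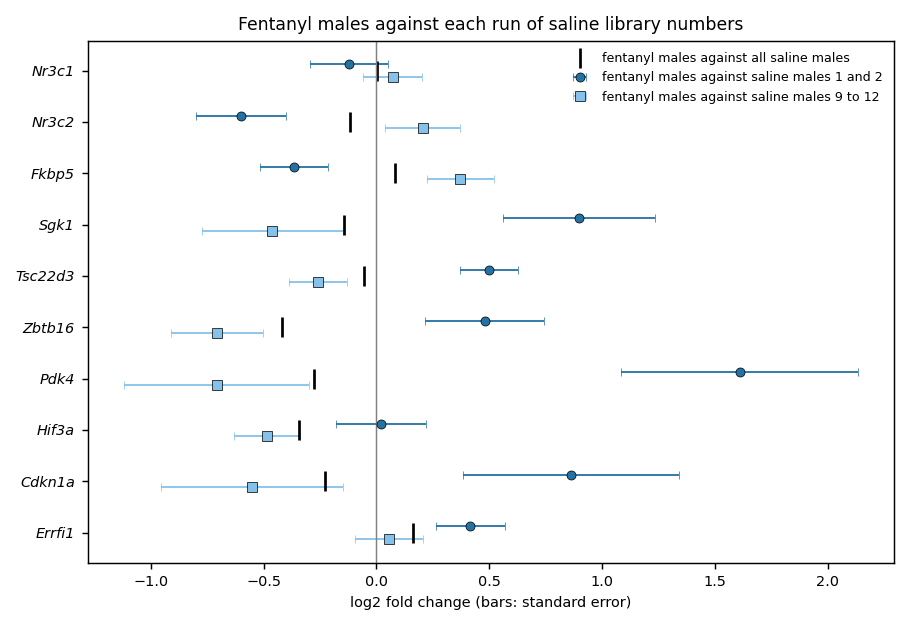
Log2 fold change of fentanyl males over saline males 1 and 2 (circles), over saline males 9 to 12 (squares), each with its standard error, and over all saline males (black bars without error). For Pdk4 the circle stands at 1.61 and the square at -0.71; both fits share the fentanyl males.

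Across the 16 libraries, 28 of the 45 pairs of the 10 genes were correlated past an adjusted p of 0.05, 20 positively and 8 negatively (100000 permutations, two-sided, smallest possible p 1e-05), and 27 of the 28 also by rank. The share of pairs of all genes that would pass was not computed, so the count is not read as particular to these genes. Sgk1 and Pdk4 had Pearson's r = 0.93 and Spearman's rho = 0.92 (permutation p = 1e-05 each, adjusted 2.7e-04 and 2.25e-04). Without the 2 libraries farthest from the median of Sgk1 r was 0.90, within fentanyl libraries 0.79 and within saline libraries 0.97. Nr3c2 and Fkbp5 were positively correlated, with r = 0.76 and rho = 0.79 (permutation p = 8e-04 and 6.3e-04, adjusted 0.0024 and 0.00258), r = 0.83 without the 2 farthest libraries, and 0.81 and 0.76 within fentanyl and saline libraries. All 8 negative pairs held Nr3c2 or Fkbp5 with an induced gene. Nr3c2 and Tsc22d3 had the most negative value, r = -0.83 and rho = -0.88 (permutation p = 7e-05 and 5e-05, adjusted 3.94e-04 and 4.5e-04), with r = -0.81 without the 2 farthest. Within fentanyl libraries r was -0.81, within saline libraries -0.85 and within the 6 saline libraries numbered 9 to 12 -0.61. Fkbp5 and Tsc22d3, both induced by the receptor elsewhere, had r = -0.71 and rho = -0.72 (permutation p = 0.00148 and 0.00207, adjusted 0.0037 and 0.00518), and r = -0.66 without the 2 farthest. Their r was -0.80 within fentanyl libraries, -0.65 within saline libraries and -0.09 within those 6 libraries. Nr3c1 was in none of the 28 pairs.

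**Figure D4:**
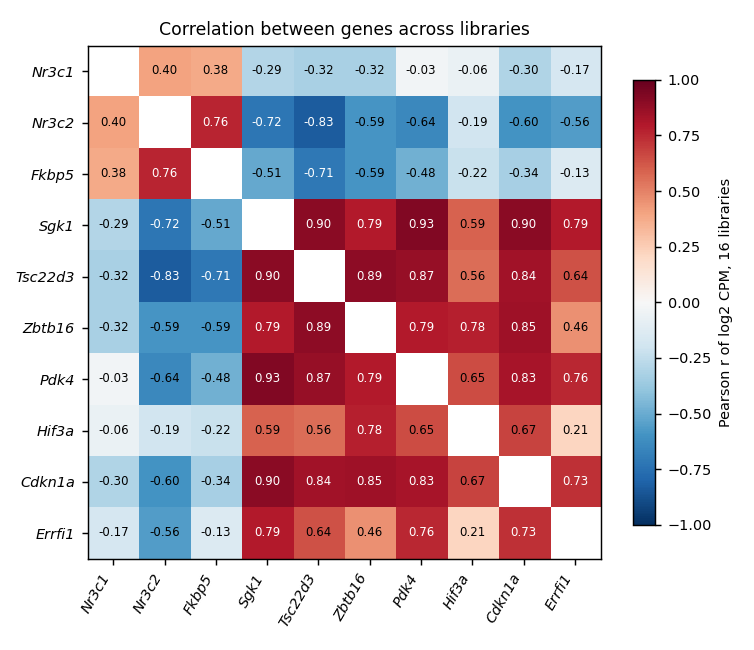
Pearson's r of log2 CPM between each pair of the 10 genes over the 16 libraries, red above 0 and blue below. Sgk1, Tsc22d3, Zbtb16, Pdk4 and Cdkn1a form a red block (0.79 to 0.93), and Nr3c2 and Fkbp5 are blue against it.

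Of 40 pairs of the 10 genes with 4 lists of cell markers (myelin, astrocyte, endothelial and general neuronal), 14 passed an adjusted p of 0.05 by Pearson's r and 10 of them also by rank; 8 were with the myelin list, 3 each with the astrocyte and endothelial lists and 0 with the neuronal list. Without the 2 libraries farthest from each list's median, 9 passed. The striatal list was not among the 4, so correlation with it was not tested. Nor was the share of all genes that would pass with each list computed, so these counts are not read as particular to the 10 genes. Tsc22d3 followed the myelin list with r = 0.89 and rho = 0.96 (permutation p = 1e-05 each, adjusted 2e-04 and 1.33e-04), r = 0.90 without the 2 farthest, 0.72 within fentanyl and 0.97 within saline libraries. Sgk1 had r = 0.83 and rho = 0.90 (permutation p = 8e-05 and 1e-05, adjusted 8e-04 and 1.33e-04), r = 0.91 without the 2 farthest, 0.55 within fentanyl and 0.94 within saline libraries. Nr3c2 ran the other way, with r = -0.89 and rho = -0.90 (permutation p = 1e-05 and 2e-05, adjusted 2e-04 each), r = -0.81 without the 2 farthest, -0.82 within fentanyl and -0.91 within saline libraries. Fkbp5 had r = -0.70 and rho = -0.68 (permutation p = 0.00225 and 0.00455, adjusted 0.0113 and 0.0228), but r = -0.55 without the 2 farthest libraries, which did not pass (adjusted permutation p = 0.103). Its r was -0.91 within fentanyl libraries, -0.62 within saline libraries and -0.07 within the 6 saline libraries numbered 9 to 12. The other myelin relations that passed were those of Pdk4 (r = 0.84, rho = 0.89), Errfi1 (0.67 and 0.67), Cdkn1a (0.66 and 0.81) and Zbtb16 (0.63 and 0.73), with adjusted permutation p of 8e-04, 0.022, 0.0229 and 0.0258 for r. Within fentanyl libraries r was 0.67 for Pdk4 and 0.45 for Errfi1, but 0.07 for Cdkn1a and 0.18 for Zbtb16, so the last 2 relations rest on the saline libraries (0.90 and 0.86). Nr3c1 (r = -0.09) and Hif3a (0.31) did not pass.

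**Figure D5:**
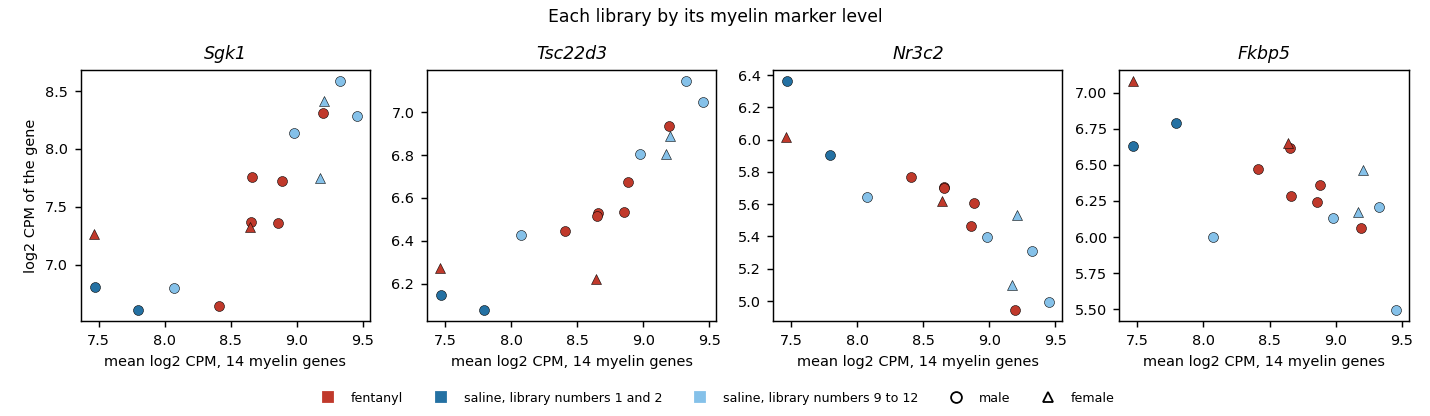
Log2 CPM of Sgk1, Tsc22d3, Nr3c2 and Fkbp5 (vertical axes) against the mean log2 CPM of 14 myelin genes (horizontal axes) in the 16 libraries, coloured by exposure and, for saline, library number; triangles are females. Saline males 1 and 2 and fentanyl female replicate 2 lie at the low-myelin end (7.46 to 7.79), with low Tsc22d3 and high Nr3c2 and Fkbp5.

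With the myelin and striatal list means both as covariates, 0 of the 10 genes passed for fentanyl against saline over both sexes, in males or in females, as without covariates. The median log2 fold change of the 10 was -0.17 over both sexes, against -0.25 without covariates, and -0.21 in males, against -0.13. In females it was -0.07, against -0.53 without covariates. With the myelin mean alone, added after seeing the data, it was -0.11 over both sexes, -0.18 in males and -0.014 in females. Neither list mean overlapped between fentanyl and saline females, so the female fits cannot separate marker levels from exposure.

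As a description of likeness, the genes with the highest Pearson's r to each of 4 members over the 16 libraries were sought among 13416 genes that averaged 1 CPM or more. For Nr3c1 they were Btaf1 (r = 0.96), Shprh (0.93) and Pcdhb14 (0.92). For Nr3c2 they were Arhgap26 (0.97), Gabra2, a GABA-A receptor subunit (0.96), and Inpp4a (0.96). For Fkbp5 they were Rhobtb2 (0.98), the phosphodiesterase gene Pde2a (0.97) and Tbc1d16 (0.97). For Sgk1 they were Ptp4a3 (0.95), Gpd1, a glycerol-3-phosphate dehydrogenase that is also in the list of other glucocorticoid-induced genes (0.94), and Plekhf1 (0.93). These values share libraries, depth and tissue make-up and carry no test.

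Around the 10 genes, 6 lists of the pathway held 75 tested entries, and edgeR's quasi-likelihood test called 0 of them over both sexes, 0 in males and 0 in females. At an unadjusted p under 0.05 there were 4, 0 and 7 of the 75, where 7.27%, 4.13% and 14.3% of all genes reached that level. DESeq2 called 0 of the 75 in each comparison, and voom called 5, 1 and 0 of them, against 1006, 84 and 0 of all 17856 genes. Of 25 other glucocorticoid-induced genes 23 were tested; 16 had log2 fold changes below 0 over both sexes, with a median of -0.08. Their smallest p were those of the transcriptional repressor Bcl6 (-0.32 ± 0.12, SE), Klf9, a zinc-finger factor directly induced by the receptor (0.42 ± 0.18), and the lipid droplet gene Plin4 (-0.34 ± 0.15), and none passed. In females Bcl6 stood at -0.60 ± 0.23 and Rasd1 at 0.80 ± 0.31. The 15 tested chaperone genes had a median of 0.0065 over both sexes and were led by Ppp5c (-0.18), Ptges3 (0.10) and Dnajb1 (-0.12), in females by Ppp5c (-0.48) and Cdc37 (0.21). The 13 coregulators had a median of 0.08 and were led by Crebbp (0.10), Smarca4 (0.12) and Hdac3 (0.10), in females by Hdac3 (0.29) and Sin3a (0.31).

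Of 9 tested genes for glucocorticoid synthesis, activation and transport, Star (-0.22), H6pd (-0.06) and Akr1c14 (0.22) had the smallest p over both sexes. In females these were Hsd11b1, which regenerates active glucocorticoid inside cells (-0.43 ± 0.21, SE), and H6pd, which supplies its cofactor (-0.30 ± 0.15). Of 11 partners of Sgk1 and genes of mineralocorticoid-responsive transport, Scnn1a (0.48), Nedd4l (0.25) and Foxo3 (0.14) had the smallest p over both sexes, and Wnk1 (-0.61) and Nedd4l (0.63) in females. Between saline males 1 and 2 and 9 to 12, 16 of the 75 were called, a count to be read against the 17.9% of all genes called there. The partners of Sgk1 held 6 of them. Among these, the ubiquitin ligase gene Nedd4l (0.96 ± 0.19, SE) and Pdpk1 (0.59 ± 0.17) were higher in numbers 1 and 2, and Ndrg1, a substrate of Sgk1 (-1.18 ± 0.28), Ndrg2 (-0.62 ± 0.13) and Atp1b1 (-0.58 ± 0.13) were lower. Of the other glucocorticoid-induced genes 5 were called lower in numbers 1 and 2, among them Gpd1 (-1.52 ± 0.36) and Klf15 (-0.76 ± 0.17), and 1, Arl4d, was called higher (1.15 ± 0.30).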

How the data were processed

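Poly(A) RNA-seq of 16 rats was analysed from raw read counts per gene symbol that the authors deposited, 1 column per library. Trizol extraction and NEBNext kits for poly(A) selection and libraries are recorded per the labels' protocols. The submitters' processing notes name Trimmomatic, STAR, HTSeq, DESeq2 and the build rn7, with no versions. The annotation and strand setting were not found in the labels, so overlapping and antisense genes may not be told apart.

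Counts were fitted in R 4.3.3 with edgeR 4.0.16 (filterByExpr over the 4 groups, TMM factors, robust quasi-likelihood), with Benjamini-Hochberg adjustment over 17856 genes. All 16 libraries shared 1 estimate of the spread, so the groups of 2 females rest on it. Correlations used log2 CPM (prior count 2) and Python 3.11.15 (scipy 1.17.1 for ranks). Alternatives were RLE factors, no filter, DESeq2 1.42.0, limma voom 3.58.1, a replicate block, covariates and libraries left out. The steps were tested on simulated data. The 10 genes and all lists were chosen with earlier results of these data known. By rule, all 10 genes were named. In each list the genes named were those past the threshold over both sexes or in males, or otherwise up to 3 with the smallest p, and for females the 2 with the smallest p. Some genes of the lists are not reported here. The list genes named between the saline sets were chosen after their values were seen. No pair of libraries agreed within sampling noise.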

Additional observations from a re-analysis of the deposited data

How the results depend on the processing

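The counts of called genes among the 10 moved as follows: over both sexes 2 by limma voom with sample quality weights and 3 without saline males 1 and 2, in males 1 without saline males 9 to 12, and between the saline sets 0 with the myelin list mean alone (added after seeing the data) or with the myelin and striatal means (1.39% and 0.0056% of all genes called), and 0 to 8 when 1 library was left out. Correlated gene and list pairs were 9 without the 2 farthest libraries. Other alternatives kept these counts within 1.5 times, though without a filter on low counts Sgk1 and Pdk4 were lost between the saline sets. Over all genes, DESeq2 called 52 higher and 35 lower over both sexes and voom 663 and 343, against 9 and 5 by edgeR. The cause was not tested.

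Some log2 fold changes of fentanyl against saline changed sign. By voom these were Nr3c1 0.12 and Errfi1 -0.0037 over both sexes, and Nr3c2 0.18 and Errfi1 -0.028 in males; for females against males voom also turned Sgk1 (-0.09), Hif3a (-0.05), Cdkn1a (-0.13) and Errfi1 (-0.0098), and for the difference between the sexes Hif3a (0.09) and Errfi1 (0.10). In males Nr3c1 was -0.0014 with RLE factors and -0.0015 by DESeq2. With myelin and striatal covariates Nr3c2 was -0.039 and Fkbp5 -0.084 over both sexes, Nr3c1 -0.076, Nr3c2 0.014, Fkbp5 -0.092 and Errfi1 -0.13 in males, Nr3c2 -0.16, Fkbp5 -0.065, Sgk1 0.24 and Cdkn1a 0.19 in females, and Fkbp5 -0.28 between the saline sets. With the myelin mean alone Nr3c2 was 0.075 in males, Nr3c2 -0.13, Sgk1 0.32, Pdk4 0.0345 and Cdkn1a 0.32 in females, and Errfi1 0.22 between the saline sets. Without saline males 1 and 2 Nr3c1 was 0.021 over both sexes and Nr3c2 0.20 in males. Without saline males 9 to 12 Nr3c2 was -0.18, Fkbp5 -0.014, Sgk1 0.17, Tsc22d3 0.039, Pdk4 0.15 and Cdkn1a 0.0695 over both sexes, and in males Nr3c1 was -0.12, Fkbp5 -0.37, Sgk1 0.90, Tsc22d3 0.50, Zbtb16 0.48, Pdk4 1.61, Hif3a 0.0195 and Cdkn1a 0.86. With 1 library left out the signs of some genes turned. Over both sexes Nr3c1 ran from -0.062 to 0.0375 and Nr3c2 from -0.043 to 0.19. In males Nr3c1 ran from -0.042 to 0.083, Nr3c2 from -0.22 to 0.075, Fkbp5 from -0.034 to 0.21, Sgk1 from -0.32 to 0.10, Tsc22d3 from -0.15 to 0.064, Pdk4 from -0.47 to 0.092 and Cdkn1a from -0.48 to 0.11. In females Nr3c1 ran from -0.36 to 0.12 and Errfi1 from -0.087 to 0.22.

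The labels do not say whether replicate numbers pair the animals. Deviations from group means of same-numbered libraries correlated at -0.17 to 0.21, over 0.1 in 2 of 8 pairs. Of 8 libraries 1 correlated best with its own number. Both female pairs hold the same value, -0.17, because deviations in groups of 2 mirror each other. These correlations cannot show whether the animals were paired. With the replicate block 0 of the 10 genes passed over both sexes and 5 genes of all were higher and 2 lower, and in males Nr3c1 was -0.0002, Sgk1 0.006 and Pdk4 0.021. Groups of 2 females, 2 saline males numbered 1 and 2, and unknown litters limit what these data can show, and Pdk4 and Cdkn1a rest on as few as 34 and 63 reads in a library.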

Other observations

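The balance of the 2 receptors was read within each library as the ratio of Nr3c2 to Nr3c1 counts, whose size depends on transcript length, so that it is set between libraries only. It was 0.508 to 0.954 in fentanyl libraries (median 0.559) and 0.453 to 1.04 in saline libraries (median 0.514). Fentanyl female replicate 2, at 0.954, and saline male replicate 1, at 1.04, stood above the other 14 libraries, none of which exceeded 0.641. Both also had the lowest means of the myelin list, 7.46 and 7.47 log2 CPM. Saline male replicate 2 had the next lowest mean, 7.79, but a ratio of 0.613, below the 0.641 of fentanyl male replicate 4, whose mean was 8.66. The part of tissue make-up in the ratio was not tested.

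The estrogen receptor genes were at low levels. Esr1 averaged 1.47 ± 0.49 CPM in fentanyl libraries and 1.81 ± 0.73 CPM in saline libraries (SD, n = 8 each), and Esr2 averaged 1.16 ± 0.56 CPM in fentanyl libraries and 1.46 ± 0.52 CPM in saline libraries. Neither passed over both sexes by edgeR's test, with log2 fold changes of -0.32 ± 0.24 and -0.36 ± 0.30 (SE). In females the log2 fold change of Esr1 was -0.67 ± 0.51 (SE) and that of Esr2 -0.80 ± 0.65.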
